A study of Heterocephalus glaber and Mus musculus with 9 samples.

Results

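The genes described here encode the ligands, receptors, secreted antagonists and signal transducers of the Wnt, BMP, TGF-beta, Notch, Hedgehog, FGF and PDGF pathways in the spleens of naked mole-rats (NM-R, Heterocephalus glaber) and mice. They were chosen by gene symbol, with earlier results of these data known. The rule took rows that begin with Wnt, Fzd, Dkk, Sfrp, Bmp, Smad, Notch, Dll, Jag, Gli, Fgf, Pdgf, Tgfb or Acvr followed directly by a digit or chain letter, together with Gas1, Lrp5, Lrp6, Nog and Grem1. Of the 12946 genes in the table of normalized counts, 81 were taken. Of the 81, 64 averaged 20 or more normalized counts in the species with the higher level and 17 lay under 20 in both. A further 27 protein-coding genes of the mouse annotation that meet the rule had no row of that name in the table. Among them were Smad1, Smad2, Smad9, Notch4 and Fgf2, so counts by family cover only the members with a row.

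The study compared healthy NM-Rs that differ in spleen size with each other and with mice, and RNA from 1 whole spleen per animal was sequenced. The mouse group held 3 wild-type male C57Bl/6N animals aged 2 months and kept at about 22°C. The ssNM-R group held 3 males with small spleens (animals 2, 3 and 6, aged 30, 26 and 23 months), and the lsNM-R group held 3 animals with enlarged spleens (animals 1, 4 and 5, aged 24, 29 and 23 months), of which animal 4 was female. All NM-Rs were kept at 29°C, and no animal received a treatment. The values are read counts per gene that the authors divided by a size factor per library, without a correction for gene length. Species can therefore not be told apart from age, housing, the reference genome, the length of the gene model or the naming of NM-R genes after mouse homologues. In bulk RNA, fewer cells of a type and less RNA per cell cannot be told apart.

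Wnt proteins bind frizzled receptors together with the co-receptors Lrp5 and Lrp6, while secreted proteins of the Sfrp and Dkk families block them. BMPs and TGF-betas signal through paired receptor kinases to Smad transcription factors, and Noggin and Gremlin trap BMPs outside the cell. Notch receptors are activated by Delta and Jagged ligands on neighbouring cells, a contact that in the mouse spleen directs B cells to the marginal zone, and FGFs and PDGFs act through receptor tyrosine kinases, mostly on stromal cells.

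Between 7815326 and 18387599 reads per library were recovered from the table. Of the NM-R libraries, ssNM-R 2, ssNM-R 3 and lsNM-R 1 were shallow (8985705 reads or fewer) and ssNM-R 6, lsNM-R 4 and lsNM-R 5 deep (16883689 or more). The spleen label was checked against markers: genes of B cells, T cells, macrophages and erythroid cells were detected in both species, and no gene on the marker lists was at 0 throughout a species. The summed levels of the B cell, T cell and erythroid markers differed between species, whereas those of the macrophage markers overlapped. Of the 7 macrophage markers 1 was higher and 4 were lower in NM-Rs. The 9 B cell markers summed to 57217 to 58231 normalized counts in mice and 2713 to 7291 in NM-Rs, and the 7 erythroid markers to 11511 to 44442 and 85058 to 130149. The 8 smooth muscle markers summed to 6455 to 8495 in mice and 16469 to 34940 in NM-Rs, the 8 fibroblast and reticular cell markers to 10753 to 11409 and 14182 to 24073, and the 7 endothelial markers to 12798 to 15411 and 6261 to 7140. All 9 B cell markers were lower and all 7 erythroid markers higher. All 7 T cell markers were lower as well, and all 4 granulocyte markers were higher. The smooth muscle, fibroblast and endothelial lists were mixed. Of these, 5 smooth muscle markers were higher and 1 lower, 4 fibroblast markers higher and 2 lower, and 1 endothelial marker higher and 3 lower. Apart from that of the macrophages, these sums moved with every contrast between species. Their part in the fold changes was not tested.

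Compared to mice, 27 of the 81 genes were higher and 34 were lower in NM-R spleens, while 20 did not pass (limma on log2(normalized count + 1), adjusted p under 0.05 over all 12946 genes, mean of both cohorts against mice). The background was of the same order. Of all genes 39.7% were higher and 38.8% lower, against 33.3% and 42.0% of these genes, and either call was made for 78.5% of all genes and 75.3% of these. Their median log2 fold change was -0.21, compared to 0.0097 over all genes. In 22 genes every NM-R spleen lay above every mouse spleen (27.2%, against 36.4% of all genes), and in 29 every NM-R spleen lay below (35.8%, against 36.2%), together 63.0% of these genes and 72.6% of all. The counts by family below stand beside these shares of all genes. Within most families some members were higher and others lower, and no gene that passed the threshold reversed its direction under any alternative to the fit.

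**Figure D1:**
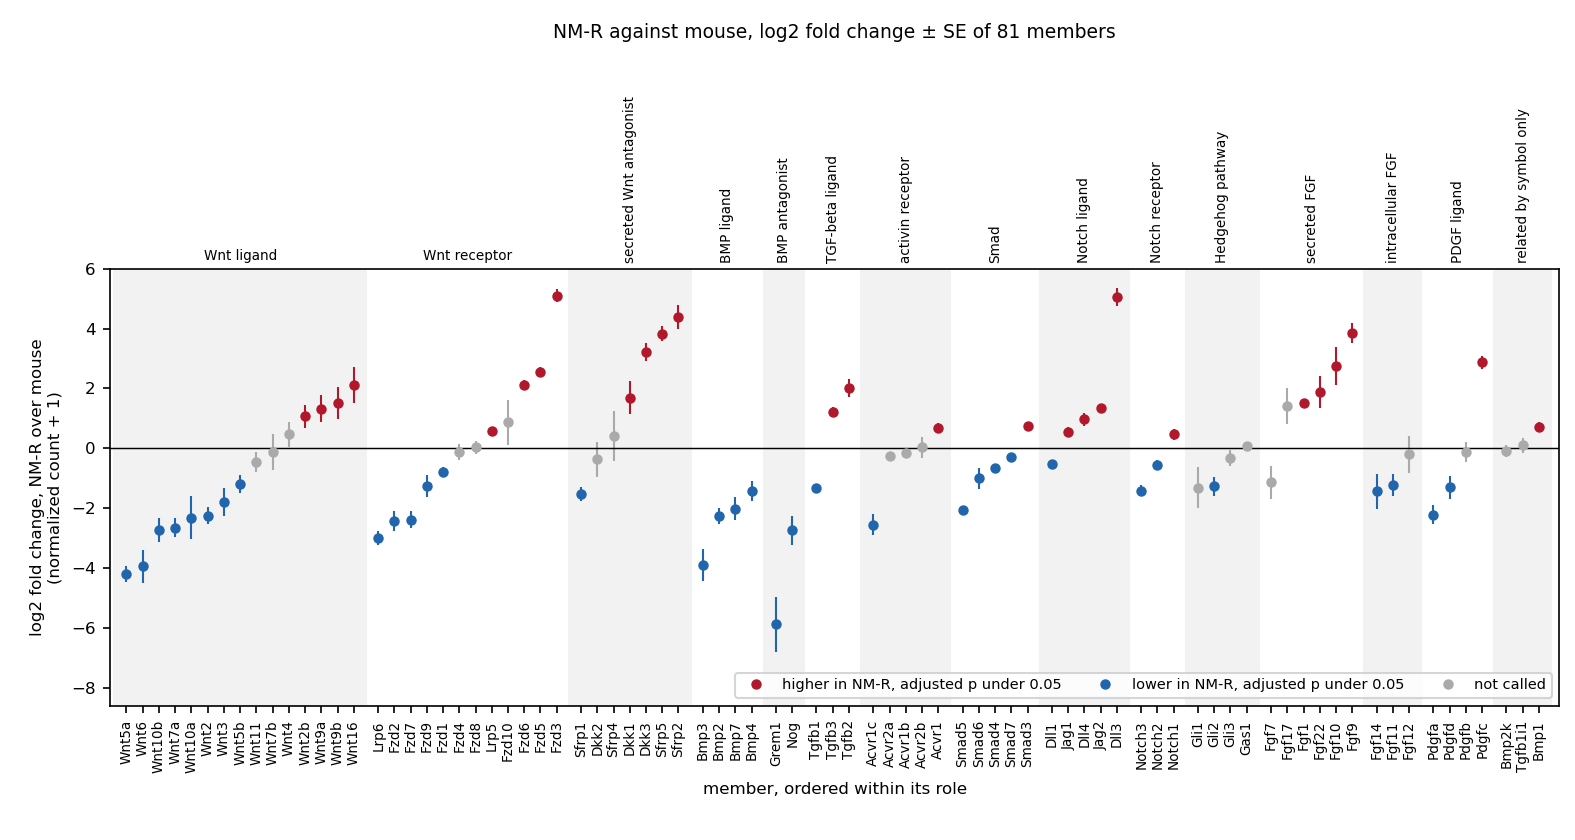
Log2 fold change of NM-R over mouse, on normalized count + 1, for the 81 genes (points, with SE bars), grouped by role along the horizontal axis and coloured by whether they passed the threshold of the limma test. Values run from -5.89 for Grem1 to 5.10 for Fzd3, and Bmp2, Bmp3, Bmp4, Bmp7 and both BMP antagonists lie below 0, while receptors, Notch ligands and PDGFs fall on both sides.

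Of the 15 Wnt ligands, 8 were lower in NM-R spleens, 4 were higher and 3 did not pass (of all genes 38.8% were lower and 39.7% higher). The lowest log2 fold change, with 1 added to each count, was that of Wnt5a, the main ligand of the beta-catenin-independent branch. Normalized counts of Wnt5a, given throughout in the order mice 1, 2 and 3, ssNM-R 2, 3 and 6 and lsNM-R 1, 4 and 5, were 209.7, 187 and 165 in the mice, 6.84, 9.01 and 10.1 in the ssNM-Rs and 14.1, 7.05 and 9.41 in the lsNM-Rs. Every NM-R spleen was thus far below every mouse spleen, with means of 9.42 ± 2.65 (SD, n = 6) and 187 ± 22.5 (SD, n = 3), a log2 fold change of -4.20 ± 0.25 (SE, limma adjusted p = 2.0e-07).

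Wnt6 and Wnt10a are neighbouring genes in the mouse, 6197 bases apart on chromosome 1 of mm9 (Wnt6 at chr1:74818466-74831893 and Wnt10a at chr1:74838090-74850753). Wnt6 counted 23.1, 22.8 and 21.0 in the mice, 0, 0 and 1.26 in the ssNM-Rs and 4.24, 0 and 0 in the lsNM-Rs, so that 4 of the 6 NM-R spleens had no read (log2 fold change -3.95 ± 0.56 (SE), limma adjusted p = 9.9e-05). Wnt10a counted 22.1, 19.6 and 24.1 in the mice, 1.37, 0 and 7.58 in the ssNM-Rs and 19.8, 6.35 and 1.88 in the lsNM-Rs, and lsNM-R 1 alone reached the mouse range (log2 fold change -2.33 ± 0.72 (SE), limma adjusted p = 0.013). The other pair of neighbouring Wnt genes, Wnt9b and Wnt3, lies 24329 bases apart on chromosome 11 and did not move together, as Wnt3 was lower (log2 fold change -1.79, limma adjusted p = 0.0054) and Wnt9b higher (1.51, adjusted p = 0.026).

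Wnt7a was also lower, at 97.3, 54.3 and 51.4 in the mice, 5.47, 7.51 and 6.95 in the ssNM-Rs and 8.47, 16.2 and 17.6 in the lsNM-Rs, without overlap between the species (log2 fold change -2.65 ± 0.31 (SE), limma adjusted p = 2.5e-05). Wnt2 counted 25.1, 40.2 and 39.8 in the mice, 2.73, 3.0 and 2.53 in the ssNM-Rs and 21.2, 11.3 and 10.7 in the lsNM-Rs, a log2 fold change of -2.25 ± 0.30 (SE, limma adjusted p = 5.9e-05), with every NM-R spleen below the lowest mouse. The remaining lower ligands were Wnt5b (-1.18) and Wnt10b (-2.73), the second of which had 0.550 ± 0.656 normalized counts in NM-Rs (SD, n = 6).

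The 4 Wnt ligands that were higher had low counts. Wnt16 rose from 1.76 ± 0.655 (SD, n = 3) to 14.1 ± 12.1 normalized counts (SD, n = 6; log2 fold change 2.13, limma adjusted p = 0.0080), with the highest value, 36.9, in ssNM-R 2. Wnt2b, Wnt9a and Wnt9b had log2 fold changes of 1.08, 1.32 and 1.51, and their ranges overlapped those of mice. Each of these 3 calls was lost when single spleens were left out. For Wnt2b this held for mouse 1, 2 or 3, ssNM-R 3 or lsNM-R 1 (limma adjusted p up to 0.073), for Wnt9a for mouse 1 or 3 (up to 0.11), and for Wnt9b for mouse 1 or 3 or lsNM-R 1 or 5 (up to 0.13). Wnt4, Wnt7b and Wnt11 did not pass, and only Wnt11 of these exceeded 20 normalized counts in the mean of either species (31.1 ± 2.76 in mice, 23.9 ± 10.2 in NM-Rs).

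Of the 12 Wnt receptors, 4 were higher and 5 lower, and both directions included strong changes. Fzd3, a frizzled known for planar cell polarity and axon guidance, counted 17.1, 12.0 and 8.39 in the mice, 565, 393 and 343 in the ssNM-Rs and 469, 461 and 465 in the lsNM-Rs. The highest mouse lay far below the lowest NM-R spleen, and the means of 12.5 ± 4.36 (SD, n = 3) and 449 ± 75.5 (SD, n = 6) differed 36.0-fold (log2 fold change 5.10 ± 0.22 (SE), limma adjusted p = 2.7e-08). Fzd5 counted 195, 259 and 217 in the mice, 1759.9, 1224 and 1126 in the ssNM-Rs and 1357, 1201 and 1277 in the lsNM-Rs, a 5.92-fold difference of the means (log2 fold change 2.56 ± 0.15 (SE), limma adjusted p = 1.6e-07). Fzd6, a relative of Fzd3 with a role in planar polarity, counted 39.1, 35.9 and 27.3 in the mice, 159, 144 and 138 in the ssNM-Rs and 141, 135 and 177 in the lsNM-Rs (log2 fold change 2.11 ± 0.17 (SE), limma adjusted p = 1.6e-06). In all 3 genes the species did not overlap.

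Fzd2 and Fzd7 went the other way. Fzd7 counted 263, 199 and 213 in the mice, 38.3, 70.6 and 35.4 in the ssNM-Rs and 49.4, 43.7 and 26.3 in the lsNM-Rs, a 5.12-fold lower mean in NM-Rs (log2 fold change -2.38 ± 0.27 (SE), limma adjusted p = 2.1e-05). Fzd2 counted 47.2, 50.0 and 44.0 in the mice, 15.0, 4.50 and 12.0 in the ssNM-Rs and 5.65, 7.05 and 7.52 in the lsNM-Rs (log2 fold change -2.42 ± 0.34 (SE), limma adjusted p = 9.0e-05). Neither gene overlapped between the species. Fzd1 and Fzd9 were lower as well (log2 fold changes -0.78 and -1.27), whereas Fzd4, Fzd8 and Fzd10 did not pass.

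The paired co-receptors Lrp5 and Lrp6 differed in opposite directions. Lrp6 counted 1942, 1737 and 1517 in the mice, 215, 272 and 116 in the ssNM-Rs and 240.1, 229 and 259 in the lsNM-Rs, a 7.81-fold lower mean in NM-Rs (log2 fold change -3.0 ± 0.23 (SE), limma adjusted p = 9.4e-07), and the groups were far apart. Lrp5 counted 1543, 1198 and 988 in the mice, 2233, 1892 and 1856 in the ssNM-Rs and 1489, 1564 and 1900.0 in the lsNM-Rs and was 1.47-fold higher in NM-Rs (log2 fold change 0.56 ± 0.14 (SE), limma adjusted p = 0.0047), with lsNM-R 1 below mouse 1. Levels were compared between receptors only in mice, as normalized counts per kilobase of exon in the mm9 annotation. Fzd1 at 244 ± 37.8, Lrp5 at 240.3 ± 54.2 and Lrp6 at 176 ± 21.6 (SD, n = 3) led this order, and the SD range of Lrp5 overlapped those of Fzd1 and Lrp6, which did not overlap each other. Next came Fzd7 at 46.8 ± 7.01, Fzd8 at 37.1 ± 5.06, Fzd4 at 36.4 ± 9.16 and Fzd5 at 32.3 ± 4.70, each overlapping the next in its SD range. NM-R gene lengths were not analysed here.

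Secreted Wnt antagonists were higher in NM-Rs in 4 of 7 cases, lower in 1 (Sfrp1) and not called in 2 (Dkk2 and Sfrp4). Of all genes 39.7% were higher and 38.8% lower. Sfrp2, a soluble decoy related to the frizzleds, counted 3.01, 0 and 1.05 in the mice, 45.1, 49.5 and 61.9 in the ssNM-Rs and 25.4, 40.2 and 34.5 in the lsNM-Rs, near the limit of detection in mice and 25.4 or more in every NM-R spleen (log2 fold change 4.39 ± 0.40 (SE), limma adjusted p = 4.0e-06). Sfrp5, of the same family, counted 3.01, 2.17 and 2.10 in the mice, 52.0, 34.5 and 63.2 in the ssNM-Rs and 36.7, 53.6 and 52.0 in the lsNM-Rs (log2 fold change 3.84 ± 0.27 (SE), limma adjusted p = 5.2e-07). Both genes separated the species completely.

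Dkk3, a divergent member of the Dickkopf family, counted 320.1, 217 and 260.1 in the mice, 1451, 2220.4 and 4682 in the ssNM-Rs and 2237, 2267 and 2737 in the lsNM-Rs, a 9.78-fold higher mean in NM-Rs (log2 fold change 3.21 ± 0.30 (SE), limma adjusted p = 4.7e-06), with the highest value in ssNM-R 6. Dkk1, the classical inhibitor of Lrp5 and Lrp6, had 0 reads in the 3 mice and 18 reads over the 6 NM-R spleens, at least 2.57-fold higher against the limit of 3 reads that a count of 0 allows in mice (3 reads over the group, covering counting error only). Sfrp1 counted 951, 882 and 769.7 in the mice, 495, 224 and 315 in the ssNM-Rs and 205, 322 and 302 in the lsNM-Rs and was 2.80-fold lower in NM-Rs (log2 fold change -1.54 ± 0.23 (SE), limma adjusted p = 1.7e-04).

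**Figure D2:**
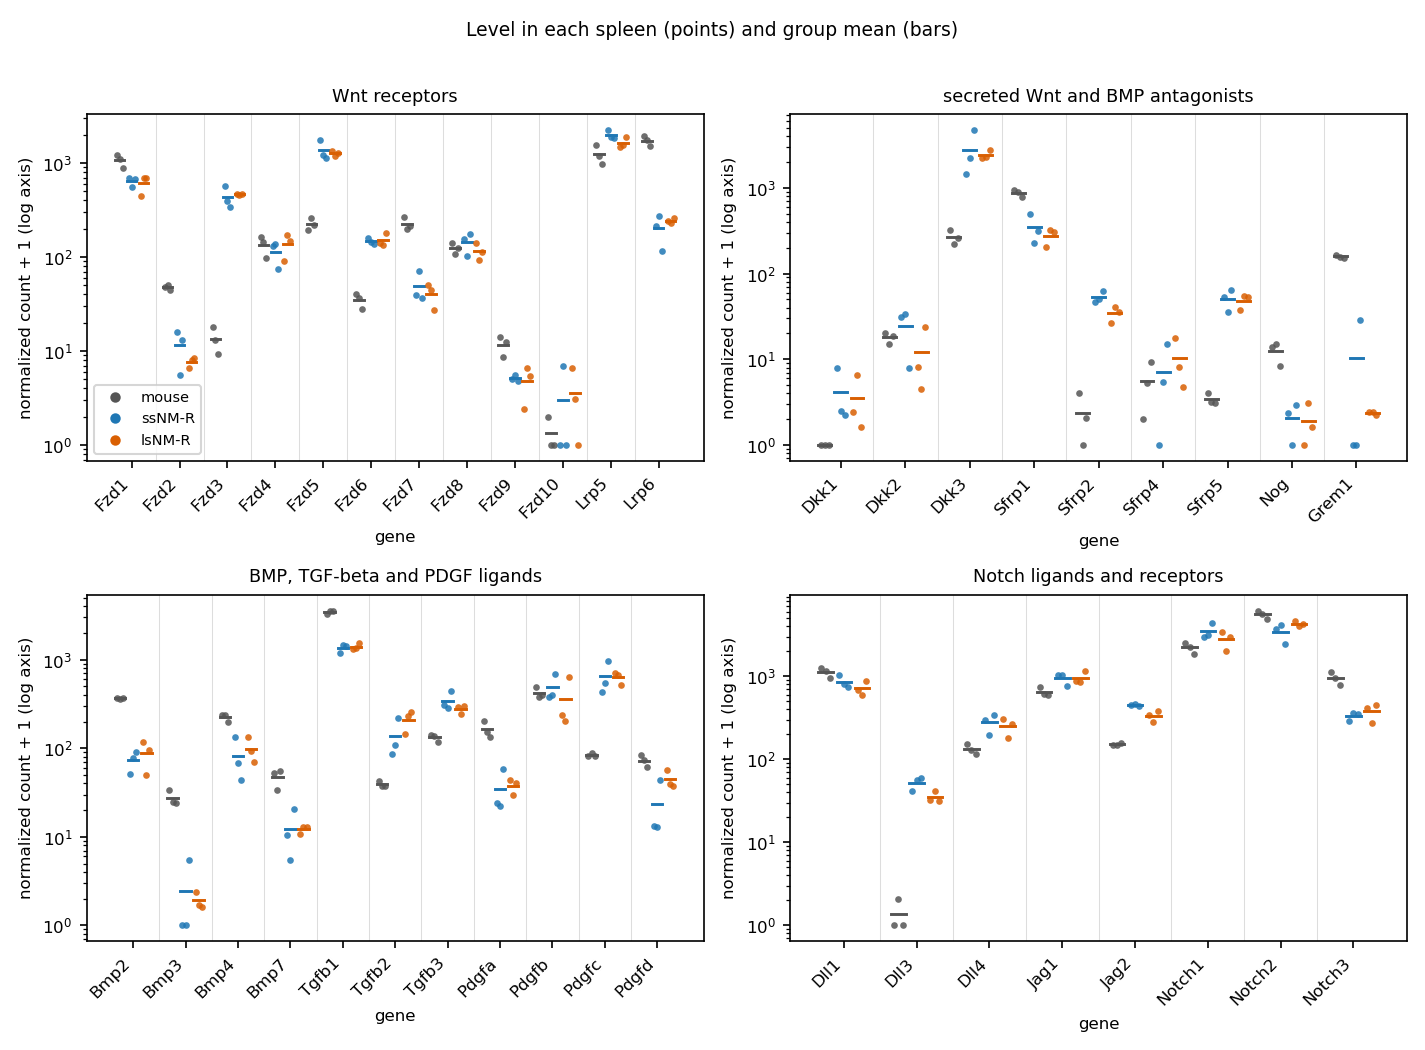
Normalized count + 1 (log axis) of the Wnt receptors, the secreted Wnt and BMP antagonists, the BMP, TGF-beta and PDGF ligands, and the Notch ligands and receptors in each spleen (points), with a bar at the mean of each group of 3 (mouse grey, ssNM-R blue, lsNM-R orange). Fzd3, Fzd5 and Fzd6 lie above the mice in both cohorts and Fzd2, Fzd7 and Lrp6 below, and Grem1 is near 0 in every NM-R spleen except ssNM-R 6 (27.8).

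The 4 BMP ligands among the 81 genes were lower in NM-R spleens, as were 38.8% of all genes. Bmp2 counted 371, 363 and 368 in the mice, 50.6, 76.6 and 90.4 in the ssNM-Rs and 116, 48.7 and 95.3 in the lsNM-Rs, with little spread among the mice and a 4.62-fold lower mean in NM-Rs (log2 fold change -2.26 ± 0.27 (SE), limma adjusted p = 3.1e-05). Bmp3, a family member that opposes other BMPs, counted 33.1, 23.9 and 23.1 in the mice, 0, 0 and 4.42 in the ssNM-Rs and 1.41, 0.705 and 0.627 in the lsNM-Rs, with 0 reads in ssNM-R 2 and ssNM-R 3 (log2 fold change -3.91 ± 0.54 (SE), limma adjusted p = 7.7e-05). Bmp4 fell from 225 ± 24.8 to 88.9 ± 36.5 and Bmp7 from 46.4 ± 12.0 to 11.2 ± 4.91 normalized counts (SD, n = 3 and 6; limma adjusted p = 0.0025 and 8.2e-04). None of the 4 overlapped between the species.

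Both BMP antagonists were lower too. Grem1, which encodes Gremlin and marks stromal cells of several organs, had the lowest log2 fold change of the 81 genes and counted 166, 157 and 152 in the mice, 0, 0 and 27.8 in the ssNM-Rs and 1.41, 1.41 and 1.25 in the lsNM-Rs. Mice varied little, 5 NM-R spleens were at or near 0, and ssNM-R 6 stood apart (log2 fold change -5.89 ± 0.93 (SE), limma adjusted p = 2.1e-04). Without ssNM-R 6 the log2 fold change was -6.69 (limma adjusted p = 3.1e-08). Nog, which encodes Noggin, fell from 11.5 ± 3.65 to 1.0 ± 0.930 normalized counts (SD, n = 3 and 6; log2 fold change -2.74, limma adjusted p = 4.4e-04).

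The 3 TGF-betas split. Tgfb1, the form produced by most leukocytes and platelets, counted 3241, 3523 and 3574 in the mice, 1189.7, 1462 and 1414 in the ssNM-Rs and 1301, 1345 and 1548 in the lsNM-Rs and was 2.5-fold lower in NM-Rs (log2 fold change -1.33 ± 0.10 (SE), limma adjusted p = 6.9e-07). Tgfb2 counted 42.1, 37.0 and 36.7 in the mice, 84.8, 107 and 221 in the ssNM-Rs and 143, 231 and 254 in the lsNM-Rs (log2 fold change 2.03 ± 0.30 (SE), limma adjusted p = 1.3e-04), and Tgfb3 counted 139, 138 and 116 in the mice, 310.4, 282 and 441 in the ssNM-Rs and 288, 243 and 297 in the lsNM-Rs (log2 fold change 1.21 ± 0.16 (SE), limma adjusted p = 5.5e-05). In all 3 the species were separate, with Tgfb1 lower and Tgfb2 and Tgfb3 higher in every NM-R. Per kilobase of exon, Tgfb1 was the most abundant of the members in mice at 1347 ± 70.1 (SD, n = 3), followed by Notch2 at 531 ± 59.4.

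Among the 5 activin receptors, Acvr1, which transmits BMP signals, was higher (log2 fold change 0.68, limma adjusted p = 0.0054), and Acvr1b, Acvr2a and Acvr2b did not pass. Acvr1c had 15 reads in mice and 0 reads in NM-Rs, at least 11.7-fold lower against a limit of 3 reads over the 6 spleens. Of the 5 Smads, only Smad3, which carries TGF-beta signals, was higher, from 1146 ± 120.4 to 1906 ± 150.1 normalized counts (SD, n = 3 and 6; log2 fold change 0.74, limma adjusted p = 5.8e-05). Smad5, which carries BMP signals, counted 1493, 1363 and 1227 in the mice, 325, 324 and 195 in the ssNM-Rs and 366, 373 and 387 in the lsNM-Rs and was 4.14-fold lower in NM-Rs (log2 fold change -2.08 ± 0.16 (SE), limma adjusted p = 1.2e-06), with no overlap. Smad4, the partner shared by both branches, was lower by a log2 fold change of -0.67 (limma adjusted p = 5.0e-04).

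The inhibitory Smads passed narrowly. Smad6 had a log2 fold change of -1.0 (limma adjusted p = 0.023), and leaving out mouse 1 or mouse 2 raised the adjusted p to 0.062 and 0.11. Smad7 had -0.29 (limma adjusted p = 0.045) and did not pass without any 1 of mouse 1, 2 or 3, ssNM-R 3 or 6, or lsNM-R 1, 4 or 5 (up to 0.15).

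Of the 5 Notch ligands, 4 were higher in NM-Rs and 1, Dll1, was lower (of all genes 39.7% were higher and 38.8% lower). Dll3, a divergent Delta that does not activate Notch on neighbouring cells, counted 0, 1.09 and 0 in the mice, 41.0, 55.5 and 58.1 in the ssNM-Rs and 31.1, 40.2 and 30.7 in the lsNM-Rs. The mice had 1 read in all against 287 in NM-Rs, a ratio of size-adjusted counts of 123 (exact 95% counting interval 21.9 to 4872; log2 fold change 5.06 ± 0.31 (SE) with 1 added to each value, limma adjusted p = 2.2e-07). Jag2 counted 149, 149 and 156 in the mice, 447, 461 and 437 in the ssNM-Rs and 346, 279.9 and 376 in the lsNM-Rs, a 2.59-fold higher mean with no overlap (log2 fold change 1.34 ± 0.11 (SE), limma adjusted p = 2.1e-06). Dll4, the endothelial Delta, and Jag1 were higher by log2 fold changes of 0.97 and 0.55 (limma adjusted p = 0.0023 and 0.0053), also without overlap.

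Dll1 and Notch2, the ligand and receptor that mouse marginal zone B cells need, were both lower in the mean of both cohorts. By cohort, Notch2 passed in ssNM-Rs only (limma adjusted p = 0.0044, against 0.090 in lsNM-Rs). Dll1 passed in lsNM-Rs only (limma adjusted p = 0.0056, against 0.062 in ssNM-Rs). Compared directly, lsNM-R against ssNM-R did not pass for either gene (limma adjusted p = 0.60 for Notch2 and 0.67 for Dll1). Dll1 counted 1263, 1150.0 and 964 in the mice, 1027, 809 and 752 in the ssNM-Rs and 679, 601 and 871 in the lsNM-Rs, with ssNM-R 2 inside the mouse range (log2 fold change -0.52 ± 0.15 (SE), limma adjusted p = 0.0083). Notch2 counted 6187, 5618 and 4940.3 in the mice, 3745, 4111 and 2444 in the ssNM-Rs and 4586, 4094 and 4250.3 in the lsNM-Rs, with every NM-R below every mouse (log2 fold change -0.55 ± 0.16 (SE), limma adjusted p = 0.0089). Both were 1.42-fold and 1.44-fold lower in the mean, whereas all 9 B cell markers were lower by log2 fold changes of -3.38 or lower. Cr2, a marker of marginal zone and follicular B cells on that list that was chosen after its values were seen, fell from 7266 ± 360.0 to 762 ± 384 normalized counts (SD, n = 3 and 6).

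Notch3, the receptor of smooth muscle and pericytes, counted 1117, 942 and 788 in the mice, 289, 363 and 354 in the ssNM-Rs and 417, 275 and 453 in the lsNM-Rs and was 2.65-fold lower in NM-Rs (log2 fold change -1.41 ± 0.18 (SE), limma adjusted p = 3.7e-05), while the summed smooth muscle markers were higher. Notch1 was higher by a log2 fold change of 0.47 ± 0.18 (SE, limma adjusted p = 0.038) with overlapping ranges. That call was lost without mouse 2, mouse 3, ssNM-R 6, lsNM-R 1 or lsNM-R 5, with an adjusted p of up to 0.17.

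Of the 4 Hedgehog genes only Gli2, a transcription factor of the pathway, passed. Gli2 fell from 44.6 ± 2.30 to 18.9 ± 8.0 normalized counts (SD, n = 3 and 6; log2 fold change -1.27, limma adjusted p = 0.0037). Gli1, Gli3 and the co-receptor Gas1 did not pass, with log2 fold changes of -1.31 ± 0.68, -0.33 ± 0.27 and 0.07 ± 0.15 (SE).

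Secreted FGFs were higher in 4 of 6 cases and none was lower, while of all genes 39.7% were higher and 38.8% lower. Fgf9 counted 5.02, 1.09 and 3.15 in the mice, 54.7, 66.1 and 47.4 in the ssNM-Rs and 45.2, 54.3 and 52.0 in the lsNM-Rs, a 17.3-fold higher mean (log2 fold change 3.85 ± 0.32 (SE), limma adjusted p = 2.1e-06). Fgf10, a mesenchymal ligand, counted 5.02, 0 and 3.15 in the mice, 19.1, 18.0 and 25.3 in the ssNM-Rs and 5.65, 23.3 and 35.1 in the lsNM-Rs (log2 fold change 2.75 ± 0.65 (SE), limma adjusted p = 0.0029), and without mouse 2 this fold change was 1.98. Fgf1, the FGF with the highest level per kilobase of exon in mice (98.9 ± 21.9, SD, n = 3), counted 565, 452 and 362 in the mice, 1227, 1486 and 1635 in the ssNM-Rs and 1089, 1281 and 1131 in the lsNM-Rs, a 2.85-fold higher mean (log2 fold change 1.52 ± 0.15 (SE), limma adjusted p = 5.5e-06). The species did not overlap in any of the 3. Fgf22 had 1 read in mice and 31 in NM-Rs (ratio 13.3, exact 95% counting interval 2.21 to 541), and Fgf17 had 1 and 24 (10.3, 1.68 to 423), although Fgf17 did not pass (limma adjusted p = 0.0504). Fgf7 did not pass either (log2 fold change -1.13 ± 0.55 (SE), limma adjusted p = 0.085).

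The intracellular FGFs, which bind sodium channels rather than receptors, showed no higher member. Fgf11 fell from 51.4 ± 8.23 to 23.4 ± 10.8 normalized counts (SD, n = 3 and 6), with a limma adjusted p of 0.012 that became 0.055 without mouse 2 (log2 fold change -1.22). Fgf14 had 3.85 ± 1.67 and 1.14 ± 1.69 normalized counts (limma adjusted p = 0.046), and this call was lost without mouse 1 or 2, ssNM-R 2 or 3, or lsNM-R 4 or 5 (up to 0.15). Fgf12 was under 3 in the mean of both species and did not pass.

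Of the PDGF ligands, Pdgfc was higher and Pdgfa and Pdgfd were lower. Pdgfc counted 81.3, 87.0 and 81.8 in the mice, 432, 539 and 962 in the ssNM-Rs and 702, 675 and 515 in the lsNM-Rs, a 7.65-fold higher mean with every NM-R above every mouse (log2 fold change 2.87 ± 0.22 (SE), limma adjusted p = 1.2e-06). Pdgfa counted 202, 152 and 132 in the mice, 23.2, 21.0 and 57.5 in the ssNM-Rs and 42.4, 28.9 and 39.5 in the lsNM-Rs, a 4.57-fold lower mean with every NM-R below every mouse (log2 fold change -2.22 ± 0.32 (SE), limma adjusted p = 1.1e-04). Both act through the receptor Pdgfra, named here for that reason, which was lower, from 1291 ± 271 to 434 ± 173 normalized counts (SD, n = 3 and 6; log2 fold change -1.66, limma adjusted p = 1.3e-04). Pdgfd fell by 2.18-fold (limma adjusted p = 0.011) and Pdgfb did not pass (422 ± 57.1 and 423 ± 200.3 normalized counts).

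A few genes meet the rule by symbol only. Bmp1, a protease that trims procollagen, was higher (log2 fold change 0.71, limma adjusted p = 0.0045), and the kinase Bmp2k and the adhesion adaptor Tgfb1i1 did not pass.

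**Figure D3:**
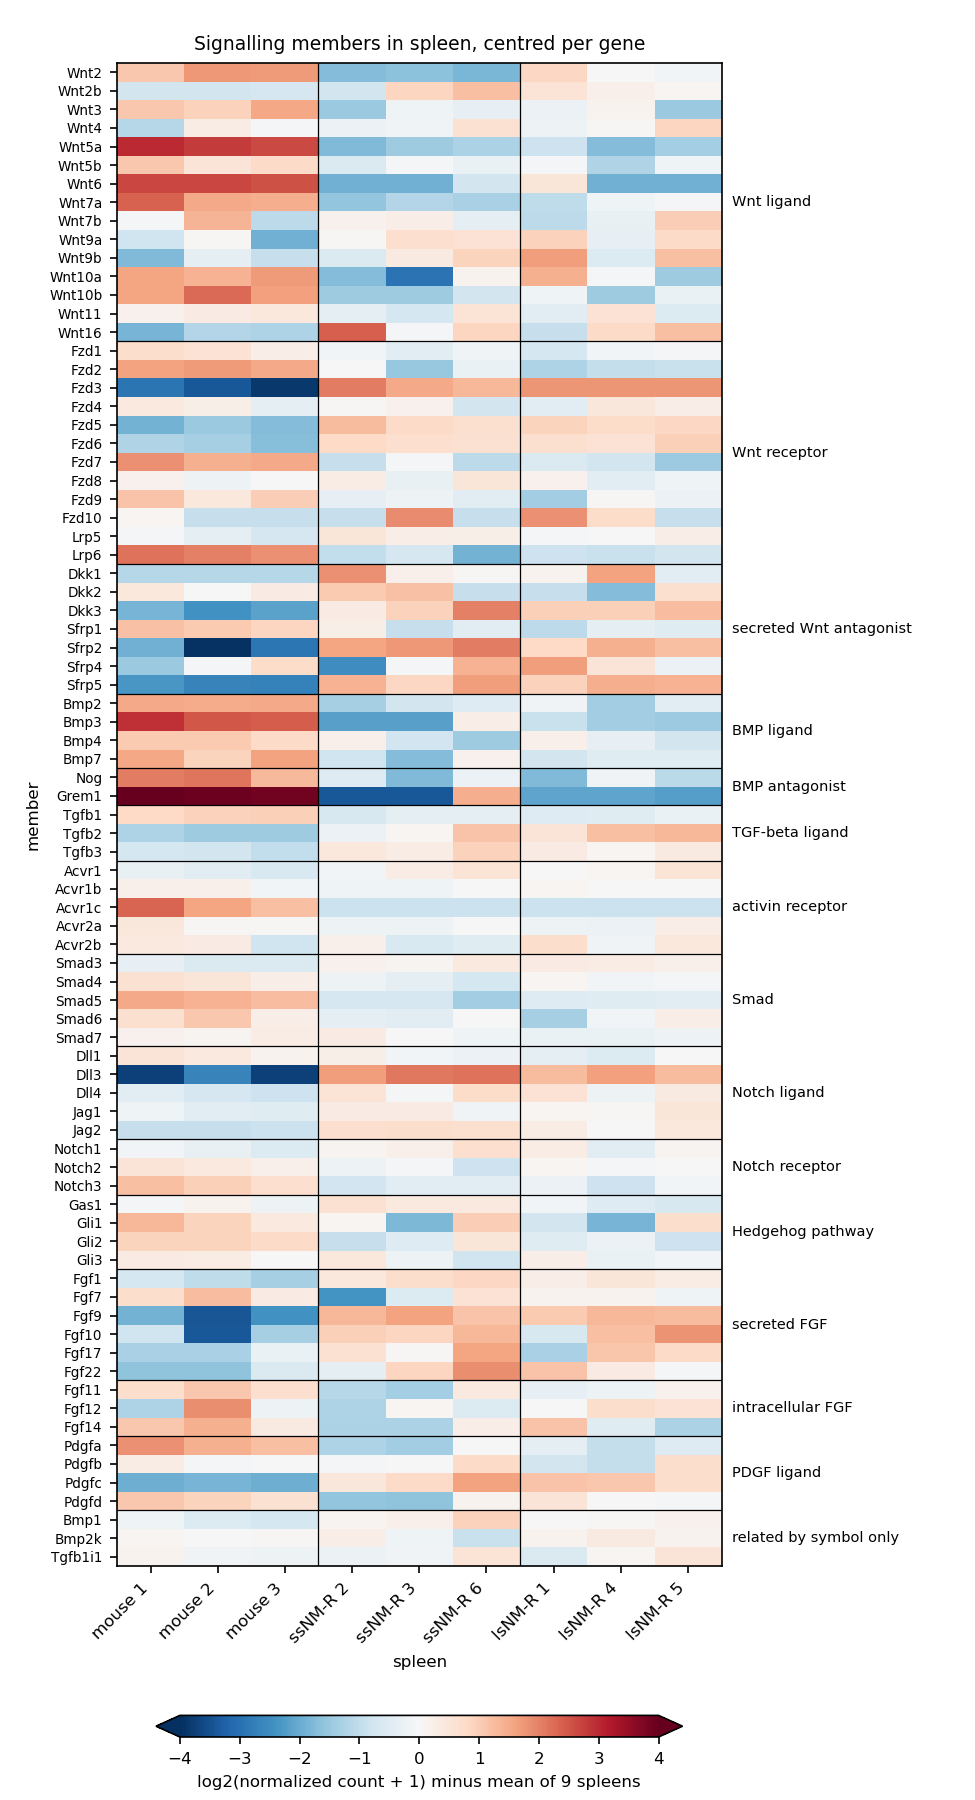
Log2(normalized count + 1) of the 81 genes (rows, by role) in the 9 spleens (columns), each row centred on its mean over the 9 spleens, red above and blue below that mean. The 3 mouse columns differ from the 6 NM-R columns in most rows, and ssNM-R 6 stands out in the rows of Grem1, Lrp6 and Smad5.

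Other genes of the same pathways, taken from lists that were drawn up with earlier results known, were spread over both directions. Their counts are given beside the 39.7% of all genes that were higher and the 38.8% that were lower. Of 16 measured receptors for TGF-beta, BMP, FGF and PDGF ligands, 3 were higher and 7 lower (18.8% and 43.8%, median log2 fold change -0.12). Bmpr1b, a receptor for BMPs, rose from 2.42 ± 2.13 to 86.5 ± 11.4 normalized counts (SD, n = 3 and 6; limma adjusted p = 3.7e-06), and Fgfr1 from 623 ± 130.4 to 2748 ± 612 (adjusted p = 1.2e-06). Fgfr4 fell from 191 ± 53.2 to 16.6 ± 8.05 (limma adjusted p = 5.6e-07) and Eng, a TGF-beta co-receptor of endothelium and macrophages, from 3509 ± 571 to 1016 ± 126 (adjusted p = 2.3e-07).

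Of 42 further Wnt pathway genes, 14 were higher and 20 lower (33.3% and 47.6%, median -0.29). Kremen1, a receptor for Dkk1, fell by 14.5-fold (log2 fold change -3.85 ± 0.17 (SE), limma adjusted p = 2.4e-08). Pygo1, a nuclear partner of beta-catenin, rose by 12.3-fold (3.62 ± 0.20, adjusted p = 1.4e-07). The secreted Wnt inhibitors Notum and Frzb were higher, by log2 fold changes of 2.90 ± 0.48 and 2.18 ± 0.22 (SE, limma adjusted p = 3.0e-04 and 7.0e-06).

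Of 36 further TGF-beta and BMP pathway genes, 12 were higher and 18 lower (33.3% and 50%, median -0.42). Ltbp1, which anchors latent TGF-beta in the matrix, rose from 405 ± 41.2 to 4216 ± 887 normalized counts (SD, n = 3 and 6; limma adjusted p = 6.3e-08), and Gdf9 from 6.71 ± 4.64 to 60.7 ± 11.5 (adjusted p = 1.5e-05). Gdf6, a BMP-type ligand, fell from 395 ± 170.4 to 0.773 ± 0.988 (limma adjusted p = 2.4e-07), and Inhbb, a subunit of activin B, from 166 ± 32.1 to 3.95 ± 3.10 (adjusted p = 2.0e-05). Id1, Id2 and Id3, which BMP signals induce and which were chosen after their values were seen, were lower by log2 fold changes of -1.16, -1.31 and -1.50. Id4, the other Id gene on the list, was higher by 2.32 (limma adjusted p = 9.6e-05), and none of the 4 overlapped between the species.

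Of 30 further Notch pathway genes, 9 were higher and 15 lower (30% and 50%, median -0.43). The ubiquitin ligases Dtx1 and Dtx3 fell by 6.90-fold and 6.36-fold (limma adjusted p = 2.2e-06 and 1.2e-07), Maml2, a co-activator, by 3.42-fold (adjusted p = 1.9e-06) and Hes5, a target gene, by 4.92-fold (adjusted p = 1.8e-04). Of 13 further Hedgehog genes, 7 were higher and 5 lower (53.8% and 38.5%, median 0.92). Stk36 rose by a log2 fold change of 4.23 ± 0.28, and Dhh, a ligand, and Ptch1, a receptor and target gene, fell, with log2 fold changes of -3.53 ± 0.34 and -2.16 ± 0.22 (SE, limma adjusted p up to 8.0e-06). Of 16 FGF feedback and adaptor genes, 7 were higher and 6 lower (43.8% and 37.5%, median 0.19), among them Etv5 (log2 fold change 2.70 ± 0.30), Spred3 (-2.0 ± 0.26), Flrt3 (-1.75 ± 0.32) and Flrt2 (-1.39 ± 0.23).

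Taken by cohort, 28 of the 81 genes were higher and 32 lower in ssNM-Rs than in mice (34.6% and 39.5%, against 38% and 37.5% of all genes), together 74.1% against 75.5%. In lsNM-Rs 25 were higher and 29 lower (30.9% and 35.8%, against 38.1% and 37% of all genes), together 66.7% against 75%. The cohorts share their mouse controls, so these are not independent counts. Compared directly, lsNM-R and ssNM-R differed in 0 of the 81 genes and in 0 of all 12946 (percent called 0, limma), and the smallest adjusted p of a member was 0.43. At an unadjusted p under 0.05, 7 members (8.64%) and 8.79% of all genes passed. Of the 7, 5 were higher in lsNM-Rs (6.17%, against 5.24% of all genes) and 2 were lower (2.47%, against 3.55%). By edgeR on the recovered reads 0 members were called, and by DESeq2 1 member, Gas1, of 57 genes. The paper, which also used DESeq2, reported a small number of genes that differed between large and small spleens. The cohorts did not overlap in 9 members (11.1%), compared to 13.1% of all genes. These were Wnt2, Wnt7a, Smad4 and Smad5 with higher levels in lsNM-Rs (4.94%, against 6.84% of all genes) and Sfrp2, Smad7, Dll3, Jag2 and Gas1 with lower levels (6.17%, against 6.23%).

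Gas1, a co-receptor for Hedgehog ligands that also restrains growth, counted 189.6, 218 and 173 in the mice, 306, 263 and 261 in the ssNM-Rs and 184, 139.6 and 126 in the lsNM-Rs. The mice lay between the cohorts, with lsNM-R 1 inside the mouse range, and the 3 ssNM-Rs averaged 277 ± 25.7 and the 3 lsNM-Rs 149.8 ± 30.1 (SD). Against mice the ssNM-Rs passed (log2 fold change 0.51, limma adjusted p = 0.020) and the lsNM-Rs did not (-0.38, adjusted p = 0.069). The log2 fold change of lsNM-R against ssNM-R was -0.90 ± 0.17 (SE), with a limma adjusted p of 0.43, an edgeR adjusted p of 0.37 and a DESeq2 adjusted p of 0.0045. Among the shallow libraries the ssNM-Rs had 306 and 263 and lsNM-R 1 had 184, and among the deep libraries ssNM-R 6 had 261 and the lsNM-Rs had 140 and 126, so the order was kept in both depth classes. Over all alternatives its log2 fold change lay between -1.05 and -0.59.

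Jag2 was at 447, 461 and 437 in the ssNM-Rs and 346, 279.9 and 376 in the lsNM-Rs, a log2 fold change of -0.43 ± 0.13 (SE, limma adjusted p = 0.44). Smad4 was at 805, 727 and 573 in the ssNM-Rs and 977, 864 and 899 in the lsNM-Rs (0.39 ± 0.14 (SE), limma adjusted p = 0.49), and Smad5 at 325, 324 and 195 and 366, 373 and 387 (0.45 ± 0.19 (SE), adjusted p = 0.55). In each depth class Jag2 was lower and both Smads were higher in lsNM-Rs, although none passed the adjusted threshold. Pdgfd was at 12.3, 12.0 and 43.0 in the ssNM-Rs and 55.1, 38.8 and 36.4 in the lsNM-Rs (1.15 ± 0.44 (SE), limma adjusted p = 0.53). Here the order held only among the shallow libraries, since among the deep libraries ssNM-R 6 exceeded both lsNM-Rs.

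Wnt2 falls outside the rule for genes named in this comparison, as its mean over NM-Rs was 8.57 ± 7.38, and was chosen after its values were seen. The ssNM-Rs had 2.73, 3.0 and 2.53 and the lsNM-Rs 21.2, 11.3 and 10.7 normalized counts, from 8 and 48 reads per group, and the log2 fold change of 1.97 ± 0.34 (SE) had a limma adjusted p of 0.43. The lsNM-Rs were higher in both depth classes and lay below the mice in every spleen.

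**Figure D4:**
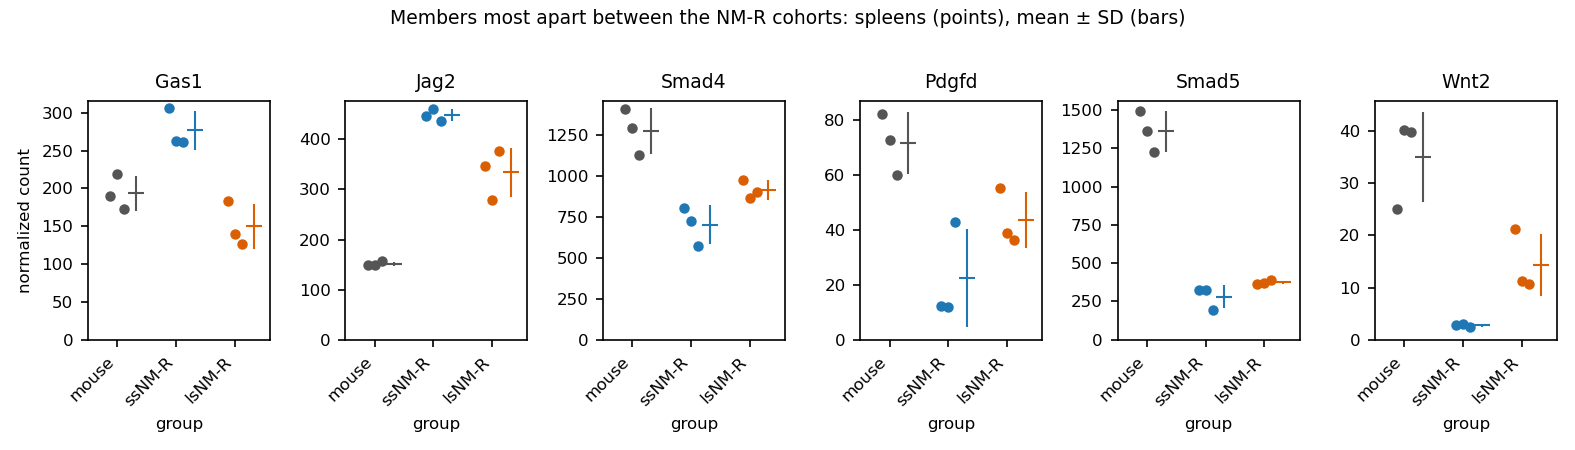
Normalized counts of Gas1, Jag2, Smad4, Pdgfd, Smad5 and Wnt2 in each spleen (points) by group, with the mean and SD of 3 spleens beside them (linear axes from 0). The cohorts are separate for each gene except Pdgfd, where ssNM-R 6 lies among the lsNM-Rs, and no difference between cohorts passed the limma threshold.

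Among the NM-R spleens, the 52 genes that averaged 20 or more had a median coefficient of variation of 26.0% over the 6 animals. Acvr1b (7.30%), Smad3 (7.87%) and Tgfb1 (9.17%) varied least, and Wnt9b (61.5%), Pdgfd (52.6%) and Pdgfb (47.3%) varied most. The spleen that most often held an extreme value was ssNM-R 6. Of 57 genes that reached 20 normalized counts in at least 1 NM-R spleen, ssNM-R 6 was highest in 20 and lowest in 12, together 32, compared to 13 to 22 in the other NM-R spleens. Extremes were not counted over all genes, so whether this is particular to these genes was not tested. It also had the highest sums of fibroblast (24073), smooth muscle (34940), mesothelial (2521) and liver (2615) markers of the 9 spleens, and the part of these cells in the extreme values was not tested.

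**Figure D5:**
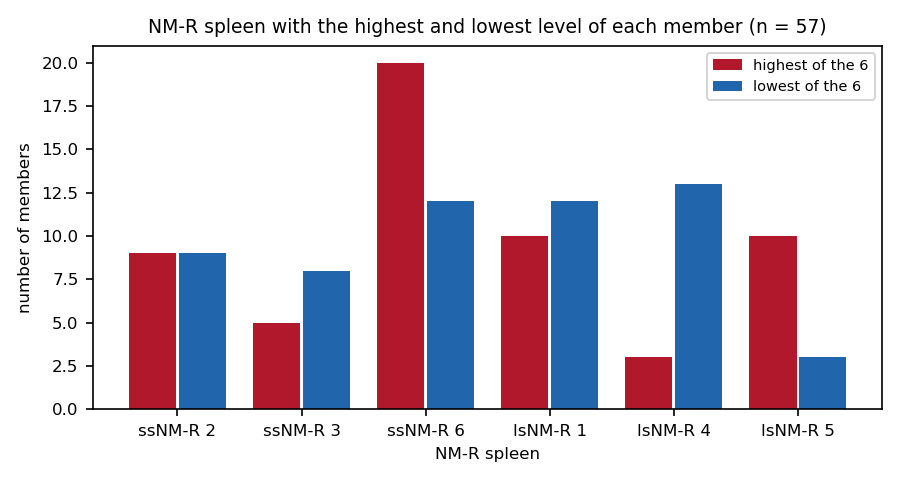
Number of genes, of the 57 that reached 20 normalized counts in an NM-R spleen, for which each of the 6 NM-R spleens had the highest (red) or the lowest (blue) level. The bars for ssNM-R 6 reach 20 and 12, and no other spleen exceeds 10 for the highest or 13 for the lowest level.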

How the data were processed

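RNA-seq libraries of 9 spleens (3 mice, 3 ssNM-Rs, 3 lsNM-Rs) were used, and groups follow the species and spleen size in the labels. The labels name mRNA libraries on a HiSeq 2500 and a Qiagen kit, whereas the methods name total RNA libraries on a NovaSeq and a Promega kit. According to the submitters' processing notes and the methods, reads were aligned with STAR 2.5.3a to mm9 or, for NM-R, hetGla2 and counted with HTSeq 0.10.0. The authors named NM-R genes after mouse homologues and scaled the counts with DESeq2 size factors. The deposited signal values are these normalized counts. Whether reads were counted by strand is not given in the sources used here. All values (100%) were whole multiples of 1 step per library (tolerance 0.1 reads), from which reads were recovered.

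For all 9 spleens, log2(normalized count + 1) was fitted as 1 mean per group in limma 3.58.1 (R 4.3.3) with a variance trend. Tests were 2-sided, p was adjusted by Benjamini-Hochberg over 12946 genes, and the threshold was 0.05. The test was checked on simulated data. On the recovered reads, edgeR 4.0.16 called 28 members higher and 32 lower between NM-R and mouse, and DESeq2 1.42.0 called 27 and 33. Other alternatives were pseudocounts of 0.5 and 5, a mean of at least 10, total, upper quartile and quantile scaling, no trend, only the compared groups, a depth class term, a replicate block and leaving out single spleens. Folds are ratios of mean normalized counts, and intervals and limits from reads cover counting error only. The labels name the samples of a group biological replicates.

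Values in every spleen are given for the 12 members with the highest and the 12 with the lowest log2 fold change against mice among those averaging 20 or more in the higher species, the 5 smallest p between cohorts with an NM-R mean of at least 20, and other members chosen after their values were seen. Up to 4 genes per pathway list follow the same minimum. Genes that these rules also name are not reported here. The members and lists were chosen with earlier results of these data known, and the grouping by role was made after values were seen. Of the 13 marker lists, those not described with the results summed in mice and NM-Rs to 9277 to 10036 and 3075 to 5816 (T cells), 5754 to 7220 and 23308 to 43284 (granulocytes), 38145 to 49258 and 28661 to 49684 (macrophages), 2999 to 4191 and 6963 to 12475 (megakaryocytes), 575 to 829 and 782 to 2521 (mesothelium), 130.4 to 298 and 83.4 to 2615 (liver), 364 to 497 and 91.6 to 185 (pancreas), and 68.5 to 152 and 149.9 to 269.8 (adipose tissue). Positions and exon lengths are those of the mouse genes in mm9 (80 of 81 members matched once). Figures were drawn with matplotlib 3.10.9.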

Additional observations from a re-analysis of the deposited data

Results flagged for a closer look

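For 57 genes the 6 NM-R spleens were searched for a spleen far from the others, by the gap to its nearest neighbour as a share of the whole range. This marked 8 genes, and chance marks about 1 in 20 groups. The share marked among all genes was not computed. Grem1 was at 27.8 normalized counts in ssNM-R 6 against 1.41 in the next spleen. Also in ssNM-R 6, Bmp1 was at 1797 (next 1089.9), Gli2 at 34.1 (next 20.4) and Tgfb3 at 441 (next 310.4), while Lrp6 was lowest at 116 (next 215) and Smad5 lowest at 195 (next 324). In ssNM-R 2, Fzd5 was highest at 1760 (next 1357) and Smad7 highest at 567 (next 443). No gene had its cohorts on opposite sides of the mice in every spleen of both.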

How the results depend on the processing

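Over the 102 results, 1943 alternative values were computed. Of the 61 genes that passed between NM-R and mouse, 50 kept their side of the threshold under every alternative, 11 lost it under at least 1 and 0 reversed, while 6 others passed under some alternative. Counts of members higher and lower in NM-Rs ranged from 24 to 27 and from 30 to 35 when 1 spleen was left out, from 18 to 26 and from 28 to 32 for lsNM-R against mouse, and from 22 to 28 and from 28 to 33 for ssNM-R against mouse. Scaling to the same upper quartile moved the median over all genes to a log2 fold change of 0.114 (0.0097 as reported). DESeq2 called 1 member and 57 of all genes between the cohorts, where limma called 0 and 0 (the cause was not tested). Dkk1 lost its call with a pseudocount of 5 or quantile normalization (adjusted p up to 0.061).

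Same-numbered mouse and NM-R libraries deviated from their group means with correlations of 0.010, -0.0045 and 0.00076. These values gave no sign of pairing by number, but so few pairs cannot exclude it. The replicate block left lsNM-R 4, lsNM-R 5 and ssNM-R 6 each alone in a block, so these spleens added nothing to a contrast. Every contrast of lsNM-Rs then rested on lsNM-R 1 alone, and only log2 fold changes are given for this fit. Against mouse, Tgfb1i1 reversed to -0.37 and Bmp2k to 0.038, and between cohorts Smad5 reversed to -0.036. Acvr2a, Gli1 and Pdgfb were at -0.45, -1.79 and -0.52 against mouse. The counts over every alternative given above include this fit.

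Genes near 0 also reversed elsewhere: Acvr2b with total scaling (-0.013), quantile normalization (-0.083), edgeR (-0.012) and DESeq2 (-0.031), Bmp2k with upper quartile scaling (0.030), Fzd8 with total scaling (-0.026) and Pdgfb with edgeR (0.026). When 1 spleen at a time was left out, the log2 fold change of NM-R against mouse changed sign for 10 genes that had not passed, Acvr2b from -0.35 to 0.25, Bmp2k from -0.21 to 0.079, Fgf12 from -0.90 to 0.66, Fzd4 from -0.35 to 0.023, Fzd8 from -0.071 to 0.14, Gas1 from -0.011 to 0.16, Pdgfb from -0.39 to 0.028, Sfrp4 from -0.19 to 0.94, Tgfb1i1 from -0.029 to 0.25 and Wnt7b from -0.70 to 0.51.

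The limits are the 3 spleens per group and, for 17 members under 20 normalized counts in both species, few reads, where the added 1 shrinks fold changes. Each cohort held shallow and deep libraries. With a depth class term, 0 members and 0 of all genes were called between cohorts (limma). At an unadjusted limma p under 0.05 this fit had 11 of the 81 members and 1669 of all 12946 genes. Of the lsNM-Rs 1 was female, and sex was not fitted. Differences between species carry the gene models and homologue names of separate annotations.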
